A study of Mus musculus with 6 samples.

Results

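The genes described are 9 members of the bone morphogenetic protein (BMP) pathway, of 21485 genes that all 6 matrices share. They were taken by name as 3 ligands (Bmp2, Bmp4 and Bmp6), 2 receptors (Bmpr1a and Bmpr2), 2 secreted antagonists (Grem1 and Nog) and 2 inhibitory Smads (Smad6 and Smad7). Gene positions given below are those of GENCODE M21. All 9 were read in every matrix, and all 9 passed the filter on low counts for the comparison of old with young. A further 50 genes of the pathway, in 5 lists, were read beside them, and 41 of these passed the same filter.

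The 6 samples were cultures of mouse muscle-derived stem/progenitor cells (MDSPCs), 3 populations labelled young and 3 labelled old. MDSPCs are the slowly adhering cells of dissociated skeletal muscle, enriched by moving unattached cells to new collagen-coated flasks over several days. The young populations carry the names Y1-1, PtC5 and FT-QU (young replicates 1, 2 and 3), and the old ones O1-1, NA-f2 and NA-f3 (old replicates 1, 2 and 3). All were grown in proliferation medium, which held serum and chick embryo extract, and profiled by droplet-based 3′ single-cell RNA sequencing. The labels give no age, sex, strain, allele or agent for any group, and no BMP protein or inhibitor is named in the labels. Each population is 1 library, so a value of 1 population has counting error but no replicate of its own.

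BMP ligands are secreted dimers that bring together type I receptors such as Bmpr1a and the type II receptor Bmpr2. The active receptor phosphorylates Smad1, Smad5 and Smad9, which enter the nucleus with Smad4 and switch on target genes, among them the Id genes and the inhibitors Smad6 and Smad7. Gremlin 1 (Grem1) and noggin (Nog) bind ligands outside the cell and keep them from the receptors. In skeletal muscle, BMP signalling is known for keeping progenitors dividing, and Id proteins hold back muscle differentiation by binding the partners of MyoD.

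The kept cells numbered 8674 to 12541 per population, 61673 of 62849 deposited barcodes, with a median of 13001 to 19951 unique molecular identifiers (UMIs) per cell. A UMI marks 1 captured RNA molecule, and 3′ counting gives 1 tag per molecule, so levels are not divided by gene length. Each library held 133974782 to 196481316 UMIs. Levels are in CPM, the count of a gene summed over the kept cells and brought to a common library total, and were scaled by the TMM factors of edgeR, which ran from 0.848 to 1.11. Young replicate 1 and old replicate 1 were counted on a shorter gene list (21849 features) than the other 4 populations (32285 features). Any 2 libraries had 23 to 35 cell barcodes in common. The summed CPM of 8 myogenic markers ran from 176 to 2173 across the young populations and from 230 to 3606 across the old, lowest in young replicates 1 and 3 and old replicate 1. Pax7, the marker of satellite cells, was at 0.0245 CPM in young replicate 3, and Myf5, a myogenic factor, at 0.00883 CPM in young replicate 1. The sum of 8 fibro-adipogenic markers ran from 279 to 438 CPM across the young populations and from 203 to 455 CPM across the old. Gsn was the highest of the 8 in each population (135 to 303 CPM). Col3a1 ran from 12.8 to 132 CPM, Ly6a from 2.76 to 121 CPM and Smoc2 from 1.18 to 103 CPM. Pdgfra ran only from 0.0363 to 1.88 CPM and Dcn from 0.243 to 1.58 CPM. Dpt was at 0.0929 CPM or less, and Lum at or near 0. The sum of 4 immune markers ran from 1.10 to 9.26 CPM across the young and from 1.41 to 4.28 CPM across the old, and the pan-leukocyte gene Ptprc was at 0.0477 CPM or less. The sum of 4 pericyte and smooth muscle markers ran from 16.5 to 27.1 CPM across the young and from 2.52 to 10.4 CPM across the old, ranges that did not overlap. Of 4 endothelial markers only Tek was raised, to 59.1 CPM, and only in young replicate 2. The part of these cell types in the members' levels was not tested.

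The members differed widely in how much they varied between populations. The coefficient of variation over the 6 populations was 9.92% for Bmpr2 and 20.99% for Bmpr1a, while the median of all 14512 tested genes was 34.9%. The other 7 members lay above that median, Smad7 close to it. Nog had 175.8%, Bmp4 136.5%, Grem1 127.8%, Bmp2 103.4%, Bmp6 90.2%, Smad6 47.9% and Smad7 36.2%. Only 2.15% of tested genes varied less than Bmpr2, and 98.6% varied less than Nog.

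**Figure D1:**
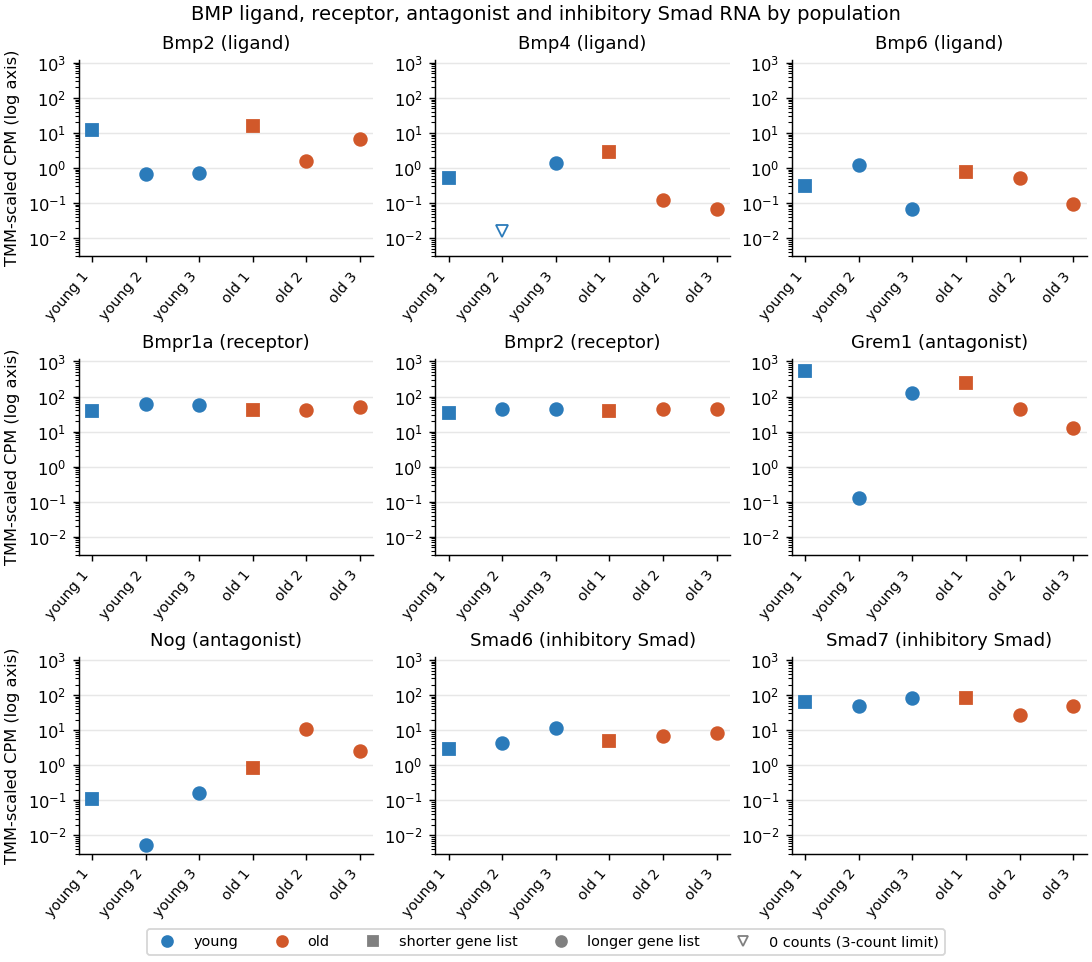
TMM-scaled CPM of the 9 genes in each population, on a log axis shared by all panels; each point is 1 population (blue young, orange old, squares the shorter gene list, the open triangle the 3-count limit where the count was 0). The receptors stay between 34.0 and 61.5 CPM, whereas Grem1 runs from 0.130 to 534 CPM and Nog is higher in all 3 old populations.

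Among the ligands, Bmp2 was the most abundant by mean level. Bmp2 (ENSMUSG00000027358, GRCm38 chr2:133552159-133562885, plus strand) encodes a ligand that can drive bone formation in muscle. Its level was 11.8, 0.685 and 0.714 CPM in young replicates 1, 2 and 3 and 16.0, 1.63 and 6.66 CPM in old replicates 1, 2 and 3. The 2 populations on the shorter list were highest in their own group, and the groups overlapped. With the gene list as a term, the fitted difference of old over young was 1.88 on the log2 scale (SE 0.75), with an unadjusted p of 0.0478 and an adjusted p of 1.00 by edgeR. Without old replicate 3 the difference was 0.89, and without the term for the gene list 0.88.

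Bmp2 UMIs were unevenly spread over cells in some populations. After each cell was randomly cut down to 5000 UMIs, 3.97%, 0.244% and 0.423% of cells held a Bmp2 UMI in the young populations and 7.08%, 0.811% and 1.70% in the old ones. An even spread would give 4.64%, 0.356% and 0.441% in the young populations. It would give 8.89% and 0.842% in old replicates 1 and 2. Young replicate 3 and old replicate 2 were thus close to an even spread. Over all UMIs of the kept cells the shares were 10.2%, 0.481% and 1.19% in young replicates 1 to 3, with 15.1%, 2.92% and 4.18% in old replicates 1 to 3. In old replicate 3, 18 cells with 10 or more Bmp2 UMIs held 27.9% of all Bmp2 UMIs. In old replicate 1, 11 such cells held 5.11%, young replicates 1 and 2 had 1 such cell each, and the remaining populations had none. Cells with 2 or more Bmp2 UMIs held 53.1%, 83.3% and 21.2% of them in young replicates 1 to 3, with 61.8%, 27.7% and 68.1% in old replicates 1 to 3. No cell type known to lack Bmp2 was present, so the share that free RNA gives was not measured. Apart from the cells with several Bmp2 UMIs, fewer cells with a transcript and less RNA per cell cannot be told apart at this depth.

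Bmp4 (ENSMUSG00000021835, GRCm38 chr14:46383520-46390669, minus strand), a ligand close to Bmp2 in sequence, was at 0.512, 0 and 1.43 CPM across the young populations and 2.92, 0.119 and 0.0696 CPM across the old. Young replicate 2 held no Bmp4 UMI in 10806 cells, where 3 counts would be 0.0156 CPM. After thinning, 0 of its 10646 cells had one, and a limit of 3 cells would be a share of 0.0282%. The highest share was 1.32% in old replicate 1 (95% exact binomial interval 1.11% to 1.57%, counting error only). Bmp6 (ENSMUSG00000039004, GRCm38 chr13:38345107-38500302, plus strand), a ligand of the group formed with Bmp5 and Bmp7, was at 0.309, 1.25 and 0.0685 CPM across the young populations and 0.769, 0.523 and 0.0928 CPM across the old. The groups overlapped for both genes, and the fitted differences of -1.49 (SE 2.56) for Bmp4 and -0.34 (SE 1.35) for Bmp6 had adjusted p-values of 1.00 by edgeR. Neither direction held: Bmp4 was at 0.68 without the gene list term, 1.67 with a replicate block and 3.61 without young replicate 3. Bmp6 was at 0.16 with the block, 1.75 without young replicate 2 and 0.39 without old replicate 3. Bmp6 overlaps Txndc5 on the other strand, and Bmp4 overlaps Gm15217 and Gm15222 there. Whether the counting used strand is not given in the sources used here.

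The make-up of the ligand sum changed from population to population. Bmp2 made up 93.5%, 81.2%, 71.8% and 97.6% of the summed Bmp2, Bmp4 and Bmp6 level in young replicate 1 and old replicates 1, 2 and 3. In young replicate 2 the largest part was Bmp6, with 64.6%, and in young replicate 3 it was Bmp4, also with 64.6%. Of 11 other BMP-type ligands 5 passed the filter on low counts and none was called. The highest by mean level were Gdf6, which reached 1.99 CPM in old replicate 3 and 0.582 or less elsewhere, and Bmp5, which reached 1.32 CPM in old replicate 3 and 0.0587 or less elsewhere.

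The receptors were expressed at like levels everywhere. Bmpr1a (ENSMUSG00000021796, GRCm38 chr14:34410734-34503341, minus strand), a type I receptor kinase, was at 37.4, 61.5 and 56.8 CPM across the young populations and 40.1, 40.1 and 49.6 CPM across the old. Bmpr2 (ENSMUSG00000067336, GRCm38 chr1:59763400-59879014, plus strand), the type II receptor kinase, was at 34.0, 42.7 and 42.9 CPM across the young populations and 39.8, 45.2 and 44.4 CPM across the old. The fitted differences of old over young were -0.23 (SE 0.22) and 0.12 (SE 0.18), neither past the threshold by edgeR. At 5000 UMIs, 14.6% to 26.3% of cells held a Bmpr1a UMI and 13.7% to 21.2% a Bmpr2 UMI. Both were found in the same cell in 2.65% to 5.87% of cells, and independent detection would give 2.00% to 5.38%. Among the 10 other receptors and co-receptors, none of which was called, the highest mean levels were those of Neo1 and Acvr1. Neo1, the neogenin receptor that binds RGM co-receptors, was at 150, 21.3 and 119 CPM across the young populations and 78.5, 34.4 and 45.3 CPM across the old. Acvr1, another type I receptor, ran from 28.1 to 51.9 CPM.

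Grem1 (ENSMUSG00000074934, GRCm38 chr2:113746164-113758646, minus strand) had the highest mean level of the 9 genes and the widest range. It was at 534, 0.130 and 129 CPM across the young populations and 239, 43.5 and 12.5 CPM across the old. The counts behind these levels were 60524, 25 and 26279 across the young populations and 40097, 8064 and 2155 across the old. In falling order stood young replicate 1, old replicate 1, young replicate 3, old replicates 2 and 3, and young replicate 2, so the young populations held both ends of the order. The summed myogenic markers, in the order young 1 to 3 and old 1 to 3, were at 372, 2173, 176, 230, 1572 and 3606 CPM, and their part in the Grem1 levels was not tested. The groups overlapped, and the fitted difference of old over young was -1.19 (SE 1.72; adjusted p = 1.00 by edgeR). Without young replicate 3 it turned to 3.31.

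The share of cells with a Grem1 UMI followed the level. At 5000 UMIs it was 76.5%, 0.0564% and 42.1% across the young populations and 61.5%, 14.9% and 2.97% across the old. Over all UMIs of the kept cells the shares were 89.5%, 0.176% and 72.1% in young replicates 1 to 3, with 81.6%, 32.5% and 6.2% in old replicates 1 to 3. Spreading the same UMIs evenly over cells would give 88.9%, 0.0657% and 48.6% across the young populations and 72.9%, 20.5% and 4.03% across the old. The measured share was below the even spread in all 6, though young replicate 2 had only 6 cells with 7 UMIs between them. The group means were 39.6% ± 38.3 across the young populations and 26.5% ± 30.9 across the old (SD, n = 3 each; exact two-sided permutation test, p = 0.7, smallest possible p 0.1).

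Of the 9 members, Nog had the largest fitted difference between the groups. Nog (ENSMUSG00000048616, GRCm38 chr11:89300638-89302332, minus strand) was at 0.106, 0.00519 and 0.166 CPM across the young populations, from 12, 1 and 34 counts. In the old populations it was at 0.810, 10.7 and 2.48 CPM, from 136, 1987 and 428 counts. Every old population lay above every young one. Nog was the only member whose ranges did not overlap, with the old higher, and 3.63% of the 14512 tested genes had that pattern. The sum of 6 osteogenic and chondrogenic markers ran from 85.4 to 292 CPM across the young populations and from 96.8 to 135 CPM across the old, and of the 4 tested 1 was above 0 and 3 below (median -0.50). Sox9, a transcription factor of cartilage, was at 60.7, 120 and 60.5 CPM across the young populations and 55.6, 59.4 and 22.6 CPM across the old. The 1 above 0, Sp7, a transcription factor of bone-forming cells, was at 0.0618, 0.187 and 0.0538 CPM across the young populations and 0.399, 0.582 and 1.98 CPM across the old. Rgs5, a pericyte marker, was at 0.927, 3.17 and 9.55 CPM across the young populations and 0.119, 0.501 and 0.244 CPM across the old. Of all the cell type markers read, these 3 genes alone had ranges that did not overlap, Sp7 with the old higher and Sox9 and Rgs5 with the old lower. The old-lower pattern was seen in 2.42% of the 14512 tested genes. The other tested markers of the same lists, Runx2, Bglap, Cspg4, Pdgfrb and Myh11, overlapped. Runx2 was at 24.1, 172 and 87.9 CPM across the young populations and 40.4, 75.0 and 90.1 CPM across the old. None of the 3 genes was called by edgeR, and their part in the Nog levels was not tested. The fitted difference was 5.25 on the log2 scale (SE 1.63), with an unadjusted p of 0.0196 and an adjusted p of 1.00 by edgeR. DESeq2 on the same sums gave 5.24 with an adjusted p of 0.00283. Over the alternatives run, the difference stayed between 4.08 and 6.25, and no adjusted p other than that of DESeq2 was under 0.722.

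The share of cells with a Nog UMI was small throughout. It was 0.0592%, 0% and 0.113% across the young populations and 0.485%, 5.21% and 1.31% across the old. Over all UMIs of the kept cells the shares were 0.138%, 0.00925% and 0.297% in young replicates 1 to 3, with 1.26%, 17.3% and 3.11% in old replicates 1 to 3. For old replicate 2 the 95% exact binomial interval was 4.74% to 5.70%, and an even spread of its UMIs would give 5.28%. For the 0 of 10646 cells in young replicate 2, a limit of 3 cells would be a share of 0.0282%. The mean was 0.0574% ± 0.0565 across the young populations and 2.34% ± 2.52 across the old (SD, n = 3 each; exact two-sided permutation test, p = 0.1, the smallest possible). For the other 8 members the same test gave p-values from 0.4 to 1.0, and over all 9 tests the smallest possible p cannot pass the threshold of 0.05.

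By edgeR, with Benjamini-Hochberg adjustment over 14512 genes, none of the 9 members was called between old and young. The background was 0.00689% of genes called higher in old and 0% called lower, that is 1 gene. At an unadjusted p under 0.05 stood 2 members, Bmp2 and Nog, of 512 genes in all. DESeq2 called 219 genes, among them 1 member, Nog. The median difference of the 9 was -0.23 with 4 above 0, and that of all tested genes was -0.01. Of the 41 other pathway genes tested none was called and 27 were above 0, with a median of 0.24.

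Several other secreted or membrane-bound antagonists were found in every population. Of 13 such genes 10 passed the filter. Nbl1, a secreted antagonist of the gremlin family, was at 55.5, 107 and 21.7 CPM across the young populations and 37.8, 119 and 87.9 CPM across the old. Crim1, a membrane protein that binds BMPs, was at 69.6, 17.2 and 86.4 CPM across the young populations and 44.6, 17.7 and 37.3 CPM across the old. Neither separated the groups. Of the 10, Chrd alone had ranges that did not overlap, with the old higher, and it was not called by edgeR. Its levels were 0.177, 0.161 and 0.0831 CPM across the young populations and 0.220, 0.383 and 2.41 CPM across the old. That pattern was seen in 3.63% of all tested genes. Summed over the 13 genes, the level was 137 to 174 CPM, so it moved far less than Grem1.

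The balance of ligand and antagonist RNA was taken as the log2 ratio of summed Bmp2, Bmp4 and Bmp6 over summed Grem1 and Nog. It was -5.40, 3.84 and -5.86 across the young populations and -3.61, -4.57 and -1.13 across the old. Antagonist RNA exceeded ligand RNA 42.3-fold in young replicate 1, 58.2-fold in young replicate 3, 12.2-fold in old replicate 1, 23.8-fold in old replicate 2 and 2.19-fold in old replicate 3. Young replicate 2 was the exception, with 14.3-fold more ligand than antagonist RNA, at sums of 1.94 and 0.135 CPM. The group means were -2.47 ± 5.48 across the young populations and -3.11 ± 1.77 across the old (SD, n = 3 each), a difference of -0.63 that is smaller than either SD. Without young replicate 2 the difference was 2.53, and without old replicate 2 it was 0.10. As a score over the members it was given no test.

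**Figure D2:**
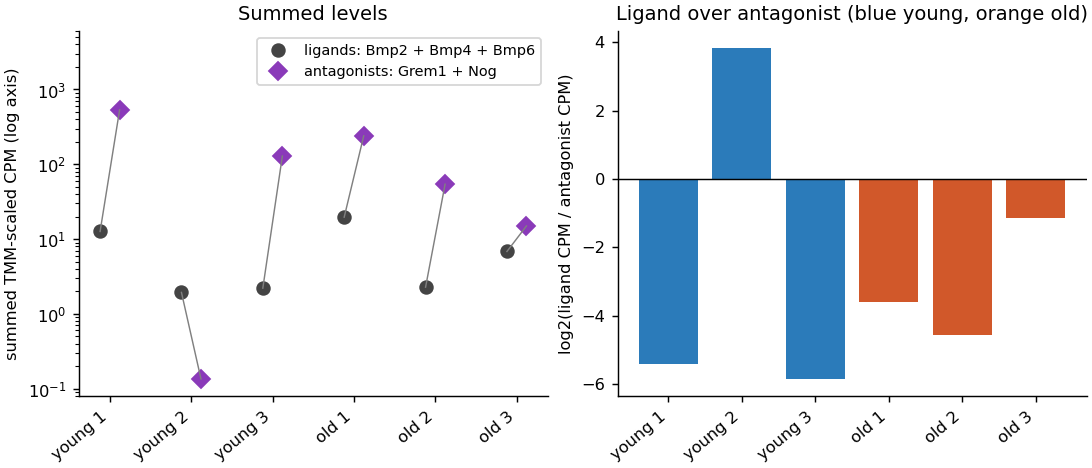
Left, summed TMM-scaled CPM of the ligands (circles) and of the antagonists (diamonds) in each population, on a log axis. Right, the log2 ratio of the sums (bars, blue young, orange old): 5 populations lie below 0, and young replicate 2 lies above it at 3.84.

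The sign of the balance in young replicate 2 rested on the choice of antagonists. With 14 ligands and 15 antagonists in the sums, the balance was -5.73, -6.04 and -6.72 across the young populations and -4.23, -6.06 and -4.18 across the old, below 0 in all 6. The old mean was then higher by 1.34. Grem1 made up over 99% of the Grem1 and Nog sum in young replicates 1 and 3 and old replicate 1, with 99.98%, 99.9% and 99.7%. Nog supplied 19.8% of the sum in old replicate 2 and 16.6% in old replicate 3.

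Ligand and antagonist RNA were also counted cell by cell at 5000 UMIs. Cells with an antagonist UMI and no ligand UMI were 73.0%, 0.0564% and 41.8% across the young populations and 55.4%, 19.2% and 3.85% across the old. Cells with a ligand UMI alone were 0.722%, 0.836% and 0.630% across the young populations and 2.35%, 0.952% and 1.36% across the old. Cells with both were 3.48%, 0% and 0.452% across the young populations and 6.32%, 0.294% and 0.386% across the old. Independent detection would give 3.22%, 0.000471% and 0.457% across the young populations and 5.35%, 0.242% and 0.0739% across the old. Both together were 5.23 times as frequent as independent detection in old replicate 3, and 0.988 to 1.21 times in the other 4 populations that had such cells. These ratios were not tested.

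**Figure D3:**
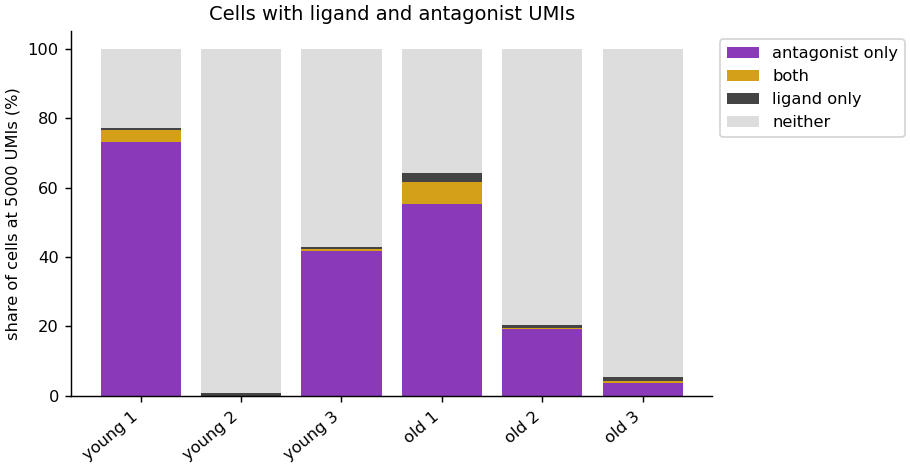
Share of cells at 5000 UMIs with antagonist UMIs only (Grem1 or Nog), with both kinds, with ligand UMIs only (Bmp2, Bmp4 or Bmp6) and with neither, stacked to 100% for each population. Antagonist-only cells make up 73.0% in young replicate 1 and 0.0564% in young replicate 2, and cells with both reach 6.32% in old replicate 1.

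In old replicate 3, 43 cells had both a Bmp2 and a Grem1 UMI, or 0.353% of its cells. Their median depth before thinning was 27246 UMIs, and that of the 11643 cells with neither was 13108 UMIs. A Myog UMI, a mark of differentiating myoblasts, was found in 18.6% of the 43 cells and in 46.7% of cells with neither. Myod1 was found in 25.6% and 93.3%, and Mki67, a gene of dividing cells, in 37.2% and 17.2%. Id2 stood at 121 unscaled CPM in the 43 cells and at 258 in cells with neither. In old replicate 1 the 523 cells with Bmp2 and Grem1 had a median depth of 13518 UMIs, close to the 13305 UMIs of the 3635 cells with neither. No doublet caller was run, and the parts of doublets and of cycling in the 43 cells were not tested.

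The inhibitory Smads are made in response to BMP and TGF-beta signals and block the receptors. Smad6 (ENSMUSG00000036867, GRCm38 chr9:63953076-64022059, minus strand) was at 2.93, 4.23 and 11.4 CPM across the young populations and 4.81, 6.96 and 8.10 CPM across the old. Smad7 (ENSMUSG00000025880) was at 65.5, 49.7 and 81.2 CPM across the young populations and 83.4, 27.3 and 49.5 CPM across the old. The groups overlapped for both genes, with fitted differences of 0.20 (SE 0.46) and -0.40 (SE 0.40). The Smad6 direction did not hold, at -0.0717 without young replicate 2 and -0.0511 on the longer list alone. The Smad7 difference was -0.77 without young replicate 1 or old replicate 1, -0.0726 without young replicate 3 and -0.0773 without old replicate 2. Without young or old replicate 1, the other stands alone on the shorter list, where the gene list term fits it. Both of those fits then rest on the populations of the longer list. In each group Smad6 was lowest in the population on the shorter list, while Smad7 was lowest in old replicate 2. Among 8 transducers and their regulators the highest mean levels were those of Ski and Smad4. Ski, a corepressor of Smads, ran from 49.7 to 82.3 CPM. Smad4, the shared partner of the activated Smads, was at 52.4, 56.1 and 52.5 CPM across the young populations and 49.6, 43.9 and 38.2 CPM across the old. All 3 old populations lay below the young ones, a pattern that 2.42% of tested genes had. The Smad4 difference was -0.30 (SE 0.19; adjusted p = 1.00 by edgeR).

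The promoters of Grem1 and Smad6 are shown because one belongs to the member with the widest range and the other to a known BMP target. Sequences are those of RefSeq (GRCm38.p6) from 250 bases before to 50 bases after the start site, and 6 of the 9 members had one. Each of 32851 windows was searched for GGCGCC, a BMP-type Smad site, and GTCTAGAC, a palindromic Smad site. Each motif is its own reverse complement, so 1 search covers both strands, and the motifs do not overlap each other. Capitals mark the matches. The Grem1 window lies at chr2:113758599-113758898, minus strand, and the Smad6 window at chr9:64022010-64022309, minus strand.
Grem1: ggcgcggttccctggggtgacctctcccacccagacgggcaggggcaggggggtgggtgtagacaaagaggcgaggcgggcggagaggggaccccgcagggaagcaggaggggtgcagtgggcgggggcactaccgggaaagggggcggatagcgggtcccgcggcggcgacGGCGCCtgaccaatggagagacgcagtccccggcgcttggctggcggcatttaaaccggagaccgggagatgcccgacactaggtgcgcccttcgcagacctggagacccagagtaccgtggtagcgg
Smad6: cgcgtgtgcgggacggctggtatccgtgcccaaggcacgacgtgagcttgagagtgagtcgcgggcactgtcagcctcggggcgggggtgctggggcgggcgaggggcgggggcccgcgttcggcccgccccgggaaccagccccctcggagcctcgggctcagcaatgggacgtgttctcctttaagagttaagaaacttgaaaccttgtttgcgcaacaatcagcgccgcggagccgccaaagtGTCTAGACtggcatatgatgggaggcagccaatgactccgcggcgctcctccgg

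GGCGCC was found in 11.9% of all windows, and among the members in those of Grem1, Bmpr1a and Bmpr2. In the Grem1 window it began 78 bases before the start site. GTCTAGAC was found in 0.213% of all windows, and among the members in that of Smad6 alone, where it began 4 bases before the start site. Neither was found in the windows of Bmp4 and Bmp6. A match describes the letters and is no evidence that a Smad binds there.

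Target genes were read beside the antagonists. The Id genes encode inhibitors of differentiation and are direct targets of BMP-activated Smads. Id1 was at 211, 525 and 529 CPM across the young populations and 263, 722 and 1194 CPM across the old. Id3 was at 417, 993 and 1042 CPM across the young populations and 331, 1843 and 2486 CPM across the old. Id2 was at 44.8, 335 and 174 CPM across the young populations and 84.4, 309 and 266 CPM across the old. For all 3 genes the lowest levels were in young replicate 1 and old replicate 1, the populations with the most Grem1 and the most Bmp2 RNA. Those 2 were also the ones on the shorter gene list, so list and population cannot be told apart. Among the 4 populations on the longer list, young replicate 2 had the least Grem1 but also the lowest Id1 and Id3, while its Id2 was the highest of the 6. Of 8 target genes all 8 were tested and none was called between old and young (Id1: 0.68, SE 0.28; Id3: 0.62, SE 0.36, on the log2 scale). With 1 population left out the Id1 difference ran from 0.40 (without old replicate 3) to 0.86. That of Id3 ran from 0.37 (without old replicate 3) to 1.09 (without young replicate 1 or old replicate 1, which both rest on the longer list).

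**Figure D4:**
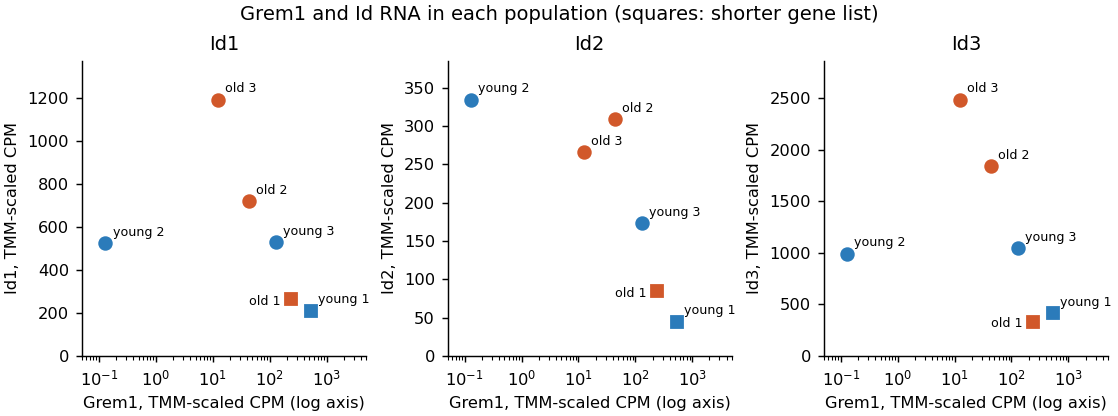
Level of Id1, Id2 and Id3 (TMM-scaled CPM, linear axes) against that of Grem1 (log axis), 1 point for each population (blue young, orange old, squares the shorter gene list). The 2 squares, young replicate 1 and old replicate 1, have the highest Grem1 and the lowest Id levels, and young replicate 2 has 0.130 CPM of Grem1 with 525 CPM of Id1.

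Where the members sit relative to differentiation was asked within each population, by comparing summed counts of cells with and without a Myog UMI, all thinned to 5000 UMIs, with the population as a block. Myogenin (Myog) turns on with the exit of myoblasts into fusion. Cells with a Myog UMI made up 3.30%, 20.6% and 5.09% of the young and 0.596%, 14.7% and 46.0% of the old populations. In old replicate 1 these were 59 cells, so its levels with Myog rest on few counts. Of 12367 genes tested by edgeR, 13.3% were called higher and 16.8% lower in cells with a Myog UMI. Of the 7 members tested, 1 was higher (Bmpr2) and 2 were lower (Grem1 and Smad7).

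Grem1 was lower in cells with a Myog UMI by the largest step. It stood at 154, 78.1, 81.5, 11.1 and 4.04 CPM with Myog and at 527, 127, 238, 49.6 and 12.6 CPM without, in young replicates 1 and 3 and old replicates 1, 2 and 3. Young replicate 2 had 0 Grem1 counts with Myog and 7 without. The fitted difference was -1.52 (SE 0.19; adjusted p = 0.00119 by edgeR), and it ran from -1.78 to -1.38 with each population left out in turn. In cells that were not thinned it was -0.97 (adjusted p = 0.00586). Smad7 was lower in 6 of 6 populations, with a difference of -0.59 (SE 0.11; adjusted p = 0.00268). Its levels were 34.8, 46.3, 56.1, 39.2, 19.0 and 37.4 CPM with Myog, and 66.4, 53.7, 83.4, 83.5, 28.4 and 60.2 CPM without, in the order young 1 to 3 and old 1 to 3.

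Bmpr2 was higher in 6 of 6 populations, by 0.39 (SE 0.09; adjusted p = 0.00873), and by 0.20 in cells that were not thinned (adjusted p = 0.0162). Its levels were 53.8, 50.6, 57.1, 63.4, 56.9 and 47.2 CPM with Myog and 35.1, 42.0, 43.1, 39.8, 45.4 and 43.7 CPM without. The highest of these, 63.4 CPM in old replicate 1, came from 59 cells. Bmpr1a differed by 0.23 (SE 0.09; adjusted p = 0.0714), above 0 in 6 of 6 populations, and did not pass the threshold. In unthinned cells it passed, at 0.18 (adjusted p = 0.0232). Bmp2 differed by -0.28 (adjusted p = 0.465), Smad6 by -0.11 (adjusted p = 0.665) and Nog by 0.84 (SE 0.41; adjusted p = 0.154), all by edgeR. Bmp4 and Bmp6 had too few counts for a test.

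Other pathway genes were read in the same comparison. Of 8 other antagonists tested 3 were higher and 3 lower in cells with a Myog UMI. The lower ones included Crim1 (-0.995, SE 0.15) and Bmper (-0.85, SE 0.23), and the higher ones were Chrd (1.82, SE 0.38), Nbl1 (0.27, SE 0.09) and Dand5 (0.47, SE 0.12). Of 9 other receptors and co-receptors 3 were higher and 1 lower. The co-receptor Hjv, known from muscle and iron control, was higher by 5.28 (SE 0.55), Rgma by 1.17 (SE 0.24) and Rgmb by 0.84 (SE 0.12), while Neo1, the receptor for these RGM proteins, was lower, at -0.33 (SE 0.09). Of 8 signal transducers and their regulators 1 was higher, Skil (0.38, SE 0.13; adjusted p = 0.0484 by edgeR), and 1 lower, Smurf1 (-0.49, SE 0.10). Over the alternatives the adjusted p by edgeR ran from 0.0288 to 0.181 for Skil, so its call was lost in some of them. For Smurf1 it ran from 0.00630 to 0.0296. Among 8 target genes Id1 was higher by 0.40 (SE 0.10; adjusted p = 0.0130; above 0 in 5 of 6 populations), Msx1 and Msx2 were lower, and Id2 and Id3 did not pass. Some of these calls were lost with 1 population left out: Neo1 without old replicate 2, Bmper without old replicate 2 or 3, Dand5 without young replicate 2, and Nbl1 without young replicate 1 or any old replicate. The call of Msx1 was lost without any single population but old replicate 3, and that of Msx2 without any young replicate or old replicate 3. Both were also lost in unthinned cells. Chrd was not tested without old replicate 3, which held 416 of its counts against 17 to 71 in each other population.

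Cycling was asked in the same way with Mki67, a gene of dividing cells. Of 12242 genes, 13.5% were higher and 21.1% lower in cells with an Mki67 UMI. Of the 8 members tested by edgeR none passed the adjusted threshold, and 3 had an unadjusted p under 0.05. Every gene called, 13.5% higher and 21.1% lower, also had an unadjusted p under 0.05, so 3 of 8 does not stand out. The 3 members were Grem1 (0.11, SE 0.04; adjusted p = 0.0688), Smad7 (0.10, SE 0.04; adjusted p = 0.0644) and Nog (-0.45, SE 0.19; adjusted p = 0.0796). Without young replicate 1, Grem1 (0.16) and Smad7 (0.14) passed. In cells that were not thinned, Nog (-0.62; adjusted p = 0.00784) and Smad7 (0.17; adjusted p = 0.0285) passed. The receptors differed by 0.08 (Bmpr1a) and -0.03 (Bmpr2). Of the other pathway genes, Hjv (-1.79, SE 0.27), Nbl1 (-0.28, SE 0.06) and the target gene Msx2 (-0.40, SE 0.14) were lower in cells with an Mki67 UMI. Of 8 signal transducers and their regulators 3 were higher, Smad1 (0.16, SE 0.05), Smad4 (0.17, SE 0.04) and Smurf2 (0.17, SE 0.04). The call of Smad1 was lost without old replicate 3, and that of Msx2 without any 1 of young replicate 1, young replicate 2, old replicate 2 or old replicate 3. Hjv was not tested without old replicate 3.

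Cells with and without a Grem1 UMI were compared in the 5 populations with at least 50 cells of each kind, which leaves out young replicate 2. Of 12385 genes, 0.509% were called higher and 2.87% lower in cells with a Grem1 UMI. These 419 calls became 114 without young replicate 1, 64, 51 and 1008 without old replicates 1, 2 and 3, and 245 in unthinned cells. None of the 7 members tested passed by edgeR. Smad7 alone had an unadjusted p under 0.05, at a difference of 0.30 (SE 0.09; adjusted p = 0.0928), and it was higher in 5 of 5 populations. Without old replicate 3 it passed, at 0.21 (adjusted p = 0.0452). Bmp2 was higher in 4 of 5 by 1.19 (SE 0.60; adjusted p = 0.345). Without old replicate 3, where the step was 3.43, it was 0.61 and passed with an adjusted p of 0.0400.

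Id1, Id2 and Id3 stood lower in cells with Grem1 RNA in each of the 5 populations compared, and of these Id1 alone was called. Id4 differed by 0.07 (SE 0.12; adjusted p = 0.970). Id1 stood at 210, 541, 260, 604 and 814 CPM with a Grem1 UMI and at 263, 589, 308, 767 and 1369 CPM without, in young replicates 1 and 3 and old replicates 1, 2 and 3. The difference was -0.33 (SE 0.07; adjusted p = 0.0477 by edgeR), the only one of 8 target genes to pass. The call was lost without thinning and without young replicate 1, old replicate 1 or old replicate 2, and the adjusted p ran from 0.00637 to 0.179 over the alternatives. Id3 (-0.31, SE 0.07; adjusted p = 0.0620) and Id2 (-0.45, SE 0.12; adjusted p = 0.0856) were also lower in 5 of 5 populations and did not pass. Id3 passed without young replicate 3 (-0.34; adjusted p = 0.0420). Among the genes called lower were the muscle genes Myod1 (-1.21, SE 0.08) and Ckm (-4.38, SE 0.32). Among cells with no Myog UMI, a split added after the data were seen, Id1 differed by -0.30 (adjusted p = 0.0732), Id2 by -0.47 (adjusted p = 0.0972) and Id3 by -0.34 (adjusted p = 0.136), lower in 5 of 5 populations for each gene. Of the other antagonists Bmper was higher by 0.61 (SE 0.13; adjusted p = 0.0441), a call lost in unthinned cells and without any 1 of young replicate 1, old replicate 1 or old replicate 2. Of 9 other receptors and co-receptors Hjv alone was called, lower at -2.70 (SE 0.34; adjusted p = 0.00560), and its call was lost without young replicate 1 (-1.94; adjusted p = 0.0532).

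**Figure D5:**
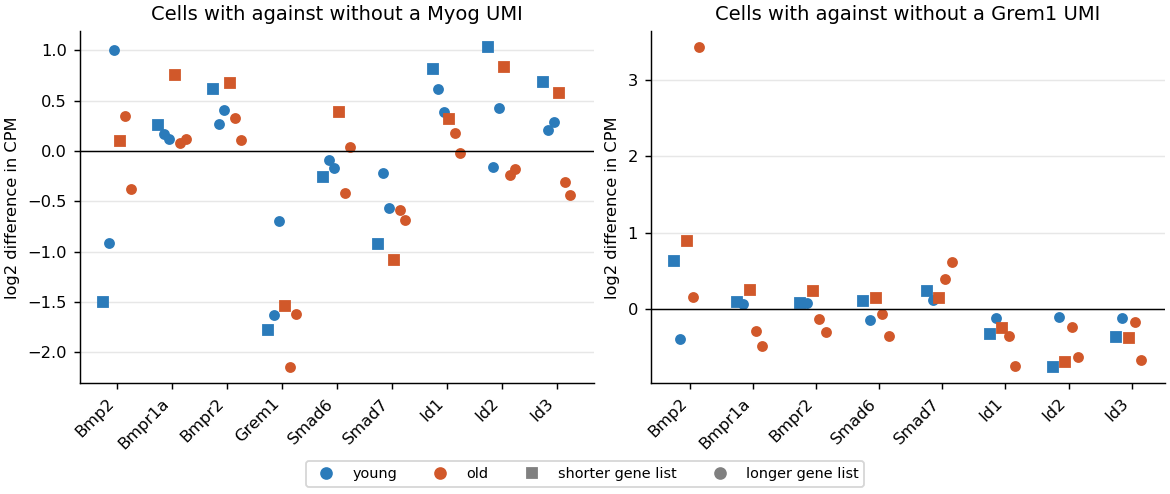
Log2 difference in CPM between cells with and without a Myog UMI (left) and with and without a Grem1 UMI (right), cells thinned to 5000 UMIs; each point is 1 population (blue young, orange old, squares the shorter gene list), and young replicate 2 is not in the right panel. Grem1 and Smad7 lie below 0 and Bmpr2 above 0 in all 6 populations on the left, and Id1, Id2 and Id3 lie below 0 in all 5 on the right.

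Cells with and without ligand RNA were compared next. For Bmp4, only young replicate 3 and old replicate 1 had 50 or more cells with a UMI (65 and 131). Of 12243 genes, 0.0572% were higher and 0.131% lower, 23 in all against 243 in unthinned cells, and no member or other pathway gene passed by edgeR in thinned cells. No tested member had an unadjusted p under 0.05. Id2 had the lowest p of the Id genes there, at -0.54 (SE 0.17; adjusted p = 0.300). In cells that were not thinned, Id3 passed at -0.26 (adjusted p = 0.000200). For Bmp2, a split added after the data were seen, 4 populations had enough cells (young replicate 1 and the 3 old ones), and 0.499% of 12231 genes were higher and 2.20% lower. No member passed by edgeR, none had an unadjusted p under 0.05, and Grem1 was higher in 4 of 4 populations by 0.86 (SE 0.66; adjusted p = 0.742). Without old replicate 3, where Grem1 stood at 74.1 CPM with and 7.48 CPM without a Bmp2 UMI, the Grem1 difference was 0.35 and passed with an adjusted p of 0.000410. The co-receptor gene Neo1 was higher by 0.42 (SE 0.11; adjusted p = 0.0235), a call lost in unthinned cells and without old replicate 2 or 3. None of Id1, Id2 and Id3 passed with all 4 populations. Id1 passed without old replicate 1 (-0.25), and Id2 in unthinned cells (-0.29) and without old replicate 2 (-0.39). Id3 passed without young replicate 1 (-0.24), old replicate 1 (-0.34) or old replicate 3 (-0.18).

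For each member, the 3 genes whose log2(CPM + 1) over the 6 populations was most like its own were sought, out of 5758 or 5759 tested genes with a mean of 20 CPM or more. The correlations are the highest of all candidates over 6 points, so they are a description. S100a13 (Pearson r 0.996) and Wdr74 (0.982) were among the 3 most like Bmp2. For Bmp4 these were Mtrex (0.988), Mgat2 (0.981) and Txlna (0.978), and for Bmp6 Cox18 (0.955), Psmd1 (0.948) and Map3k7 (0.935). Bmpr1a had Zfp207 (0.995), Hnrnpa3 (0.989) and Psmd7 (0.987), and Bmpr2 had Col12a1 (0.989), Myf5 (0.987) and Crlf3 (0.983). Grem1 was followed by Soat1 (0.987), Btg3 (0.987) and Ndufaf2 (0.981). Soat1, which esterifies cholesterol, was at 108, 24.6 and 83.7 CPM across the young populations and 95.9, 52.3 and 50.2 CPM across the old, a far narrower range than that of Grem1. Nog had Acot9 (0.965), Nabp2 (0.963) and Xbp1 (0.957), all highest in old replicate 2. Smad6 had Magohb (0.981), Exoc4 (0.979) and Sox11 (0.975). Smad7 had Dlgap5 (0.991), Cenpf (0.990) and Ncaph2 (0.988).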

How the data were processed

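The authors deposited raw, whole-number UMI counts for each gene in each barcode. Per the file headers, young and old replicate 1 were run through Cell Ranger 7.0.0 and the other 4 through version 7.2.0. The build was mm10, per the submitters' processing notes, and the treatment of intronic reads is not given in the sources used here. A barcode needed at least 1000 UMIs from at least 500 genes, with less than 15% of its counts from 13 mitochondrial genes. Only the 21485 shared gene identifiers were used, which held 98.5% to 99.9% of UMIs. Counts were summed per population, and edgeR 4.0.16 (R 4.3.3) fitted its robust quasi-likelihood model to TMM-scaled sums of genes passing filterByExpr, with terms for gene list and group. Tests were two-sided, with Benjamini-Hochberg adjustment at 0.05. The SE given with a fitted difference is its absolute value divided by the square root of the edgeR F statistic. It is not a separate estimate and need not match the p beside it. DESeq2 1.42.0 was an alternative. The labels call the populations biological replicates, and whether each came from 1 mouse is not stated. Shares of cells used cells thinned to 5000 UMIs, and 149 to 373 shallower cells per population were left out. The old-against-young comparison was run on simulated counts, and the comparisons of cells were not. Intervals are exact binomial (scipy 1.17.1) and cover counting error only. The members and gene lists were chosen with earlier results of these data known. Other pathway genes named are the 2 highest of each list by mean CPM and those of a mean of 5 CPM or more whose groups did not overlap. Further genes of the lists named in the comparisons of cells were named after their values were seen. The values of some genes that these rules name are not reported here.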

Additional observations from a re-analysis of the deposited data

How the results depend on the processing

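Relative to the old-against-young differences given above, Nog and Bmp2 stayed higher in old in all alternatives run, and Bmpr1a, Bmpr2 and Smad7 kept their signs. The calls between old and young numbered 0 without the gene list term and on the longer list only, 219 with DESeq2, and 0 to 3 with 1 population left out. Of these last fits, those without young or old replicate 1 rest on the longer list alone, through the gene list term. Bmp4 turned to 0.68 without the gene list term and 1.67 with a replicate block, with a range of -2.91 to 3.61 when 1 population was left out. Bmp6 turned to 0.16 with the replicate block (range -1.10 to 1.75), Grem1 had a range of -1.83 to 3.31, and Smad6 was -0.0511 on the longer list (range -0.0717 to 0.78). Same-numbered populations correlated in their deviations at 0.40, 0.28 and -0.11, and the other pairs at -0.48 to 0.33. With 3 populations in each group, these values cannot tell whether the numbers pair them. The replicate block gave 1 call, as without it. The balance difference was -5.12 without Grem1, 1.34 with the wider lists and -2.33 to 2.53 with 1 population left out. Differences in the share of cells, in percentage points, turned for Bmp4 on the longer list (-0.262), for Bmp6 there (-0.119) and unthinned (-0.0628), and for Smad6 unthinned (0.676). With 1 population left out they ran from -0.289 to 2.86 for Bmp2, -0.223 to 0.430 for Bmp4, -0.0607 to 0.212 for Bmp6, -0.0270 to 3.37 for Bmpr2, -32.8 to 5.38 for Grem1, -1.03 to 1.44 for Smad6 and -10.004 to 1.10 for Smad7. Genes called by the Myog comparison numbered 2421 to 3751 with 1 population left out (2472 without old replicate 2 and 2421 without old replicate 3). By the Grem1 comparison they numbered 245 unthinned and 51 to 1008 with 1 population left out (114 without young replicate 1, 64, 51 and 1008 without old replicates 1, 2 and 3). Bmp4 in the Grem1 comparison ran from -0.0323 to 0.61. Unthinned cells gave 243 calls in the Bmp4 comparison, with Grem1 at -0.0380, and Smad6 at 0.18 in the Myog comparison and Nog at 0.0740 in the Bmp2 comparison, whose calls ran from 246 to 551. The cause of these changes was not tested. Depth limits Bmp4, Bmp6 and Nog, and Grem1 in young replicate 2, where some populations held 0 to 35 counts.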
